A study of Mus musculus with 12 samples.

Results

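The genes described here are 10 sensors of RNA and DNA and their closest partners: *Ddx58* (RIG-I), *Ifih1* (MDA5), *Dhx58* (LGP2), *Eif2ak2* (PKR), *Zbp1*, *Mavs*, *Tmem173* (STING), *Mb21d1* (cGAS), *Tlr3* and *Adar*. They were taken by symbol from a table of 23022 genes, and each symbol matched 1 row. The table covers 12 poly(A) RNA-seq libraries of B16-F10, a mouse melanoma cell line, in 4 conditions with 3 replicates each. The conditions were non-targeting control cells (NTC, written as no template control in the labels) and cells edited in *Mbnl1* and *Mbnl2* (*Mbnl* DKO), each unstimulated or stimulated with IFNγ (1 ng/mL for 1 day, as the study's text states). All cells, controls included, carried Cas9 and derived from 1 Cas9 clone, whereas the edited cells were polyclonal and their western blots still showed some MBNL protein. Muscleblind-like proteins bind RNA and regulate splicing and RNA localization. The question was the basal level of each sensor by genotype and its response to IFNγ.

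Cells detect foreign or misplaced nucleic acids with receptors that differ in place and ligand. RIG-I and MDA5 bind double-stranded RNA in the cytosol and signal through MAVS on mitochondria, and LGP2 is a related helicase that lacks the signaling domains. cGAS binds cytosolic DNA and makes the cyclic dinucleotide cGAMP, which activates STING. TLR3 binds double-stranded RNA in endosomes, PKR halts translation by phosphorylating eIF2α, ZBP1 binds left-handed nucleic acids and can trigger necroptosis, and ADAR edits adenosines in double-stranded RNA, which keeps self RNA from being sensed. Many of these genes are themselves interferon-stimulated genes.

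Values are TPM, transcript abundances scaled for transcript length and to the whole library, so levels of different genes can be set side by side. TPM keep no read depth, so precision came from the spread between replicates. Nothing states that replicates were separate cultures, so p-values measure the spread between these samples. Differences were tested with limma on log2(TPM + 1) over 11663 genes that reached 1 TPM in 3 or more libraries, and are given as log2 differences with their standard error (SE) and a Benjamini-Hochberg adjusted p over all tested genes, called at 0.05. For genes near 1 TPM, a log2 difference on this scale understates the ratio of TPM. All 10 genes were tested, but *Zbp1* passed the filter only through treated libraries, since no untreated library reached 1 TPM, so its response was in part fixed by the filter. *Dhx58* reached 1 TPM in 8 of 12 libraries.

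*Mbnl1* RNA was lower in untreated DKO cells by a log2 difference of −0.41 (limma, adjusted p = 2.54e-05) and in treated ones by −0.47, and that of *Mbnl2* by −0.20 and −0.23. The 7 melanocyte markers (such as *Tyr* and *Pmel*) summed to between 16600 and 18600 TPM in NTC and between 11100 and 12400 TPM in DKO libraries. The 12 leukocyte markers in the table summed to between 2.56 and 8.62 TPM, with *Ptprc*, *Cd3e*, *Cd8a*, *Emr1* and *Ncr1* listed at 0 in every library. Their sum was highest in treated DKO libraries (6.41 to 8.62 TPM), where *Cd68* alone stood between 4.84 and 6.49 TPM. The 5 fibroblast and endothelial markers summed to between 3.17 and 6.32 TPM, and *Cdh5* was listed at 0 throughout. Listed genes summed to between 844185 and 874612 TPM in NTC and between 805782 and 827191 TPM in DKO libraries, a gap that runs with genotype. The part of these values in the results below was not tested beyond the rescaled fits given beside them.

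In untreated NTC cells the sensors fell into a high and a low group. *Adar* (24.4 to 24.6 TPM), *Tmem173* (21.3 to 21.7 TPM), *Mavs* (18.6 to 20.9 TPM) and *Eif2ak2* (17.1 to 19.6 TPM) were highest, of which only *Mavs* and *Eif2ak2* overlapped as neighbours. *Tlr3* followed at 4.85 to 5.39 TPM and *Mb21d1* at 3.01 to 4.27 TPM. The inducible RNA helicases were low, with overlapping levels of *Ddx58* (1.88 to 2.43 TPM) and *Ifih1* (1.47 to 1.96 TPM), and *Dhx58* (0.645 to 0.955 TPM) and *Zbp1* (up to 0.38 TPM) came last. In untreated DKO cells *Tmem173* stood first, *Adar* and *Eif2ak2* overlapped behind it, and *Mavs*, *Tlr3*, *Mb21d1*, *Ddx58*, *Ifih1*, *Dhx58* and *Zbp1* followed in that order with no overlap between neighbours. With IFNγ, *Ddx58* and *Ifih1* stood above *Mb21d1* and *Zbp1* above *Dhx58* by their means in both genotypes. The overlapping neighbours were then *Adar* and *Eif2ak2* in both genotypes, *Tlr3* with *Ddx58* and *Mb21d1* with *Zbp1* in NTC, and *Zbp1* with *Dhx58* in DKO cells.

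**Figure D1:**
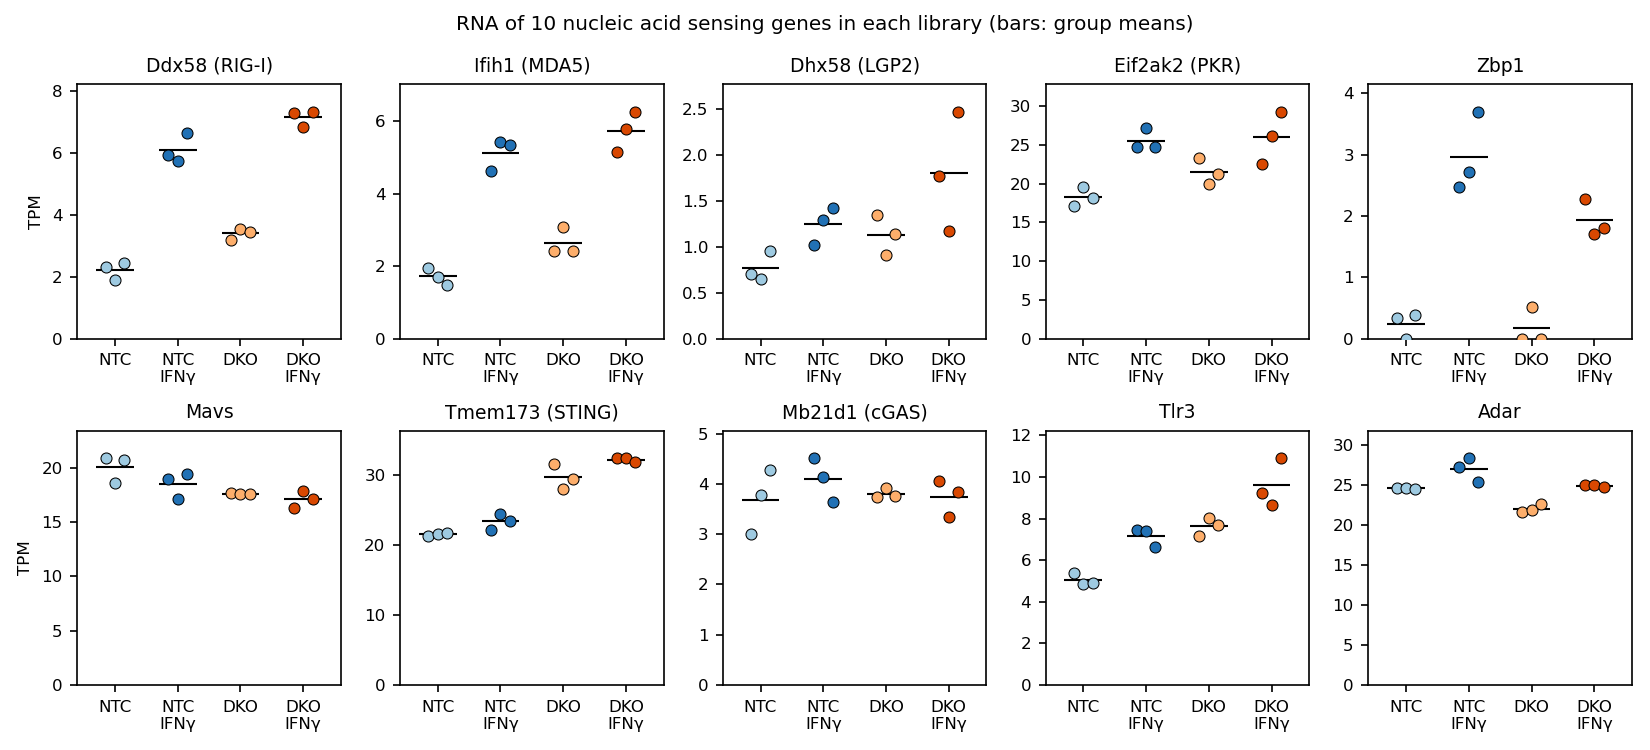
TPM of the 10 genes (vertical axes, each from 0 and with its own scale) in the 3 libraries of each condition (points), with group means as bars. *Ddx58*, *Ifih1* and *Zbp1* are above every untreated library of their genotype in all treated ones, *Tmem173* is higher in all DKO than in all NTC libraries (28 to 32.4 against 21.3 to 24.5 TPM), and *Mb21d1* overlaps in all conditions.

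*Ddx58*, which encodes the receptor RIG-I (ENSMUSG00000040296, GRCm38 chromosome 4, 40203773 to 40239828, minus strand), was raised by IFNγ in both genotypes and had a higher basal level in DKO cells. Untreated NTC libraries held 2.3, 1.88 and 2.43 TPM and treated NTC libraries 5.93, 5.76 and 6.65 TPM. Untreated DKO libraries held 3.2, 3.56 and 3.44 TPM and treated DKO libraries 7.3, 6.84 and 7.34 TPM. The 4 conditions did not overlap and stood in the order untreated NTC, untreated DKO, treated NTC and treated DKO. The response was 1.15 in NTC (SE 0.0886, adjusted p = 2.14e-06, limma), 2.78-fold in mean TPM, and 0.89 in DKO (adjusted p = 4.79e-05), 2.11-fold. Basal RNA was higher in DKO by 0.46 (SE 0.0886, adjusted p = 0.00121), 1.54-fold in mean TPM. In bulk RNA, more RNA in each cell and more cells with the RNA cannot be told apart, here and for every gene that follows. With IFNγ, the difference between genotypes was 0.20 (adjusted p = 0.085) and was called only after every library was scaled to 1 common total (0.27, adjusted p = 0.0213) or with a trend with GC content and length removed (0.26, adjusted p = 0.024), among 19 alternatives.

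*Ifih1*, which encodes MDA5, the receptor for long double-stranded RNA (ENSMUSG00000026896, chromosome 2, 62595798 to 62646255, minus strand), followed *Ddx58* closely. The NTC libraries held 1.96, 1.71 and 1.47 TPM untreated and 4.61, 5.43 and 5.34 TPM treated. The DKO libraries held 2.41, 3.09 and 2.41 TPM untreated and 5.15, 5.77 and 6.26 TPM treated. Treated and untreated libraries did not overlap in either genotype, and neither did untreated libraries of the genotypes, whereas treated libraries of the genotypes overlapped. The response was 1.18 in NTC (SE 0.109, adjusted p = 1.73e-05, limma) and 0.89 in DKO (adjusted p = 0.000452), and basal RNA was higher in DKO by 0.42 (adjusted p = 0.0082), 1.54-fold in mean TPM. With IFNγ, the genotypes differed by 0.13 with a 95% interval from −0.10 to 0.37.

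*Dhx58*, which encodes the regulator LGP2 (ENSMUSG00000017830, chromosome 11, 100694884 to 100704271, minus strand), was near the limit of the filter, and no comparison called it. Its values were 0.704, 0.645 and 0.955 TPM in untreated NTC, 1.02, 1.29 and 1.42 TPM in treated NTC, 1.34, 0.906 and 1.14 TPM in untreated DKO and 1.77, 1.17 and 2.47 TPM in treated DKO libraries. All treated NTC libraries were above all untreated ones, but DKO libraries overlapped. The fitted responses were 0.34 in NTC (95% interval −0.01 to 0.69, adjusted p = 0.165, limma) and 0.38 in DKO (95% interval 0.03 to 0.73, adjusted p = 0.476). With IFNγ the genotype difference was 0.30 (adjusted p = 0.155), and it was called without treated DKO replicate 2 (0.47, adjusted p = 0.0302), the lowest of its group. On the opposite strand, the annotated *Dhx58os* shares 141 exonic bases with this gene, and unstranded reads cannot separate them.

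The starts of these genes were examined for the motifs through which interferons act. Factors activated by type I interferon bind the interferon-stimulated response element (ISRE), a pair of GAAA repeats, and the gamma-activated sequence (GAS) is the element of the IFNγ response. The letters searched on both strands were GAAA repeated after any 2 bases, the GAS core TTCNNNGAA and, added after the sequences were seen, GAAA repeated after any 1 base. RefSeq windows of 300 bases around annotated starts (GRCm38.p6) were searched for 7 of the 10 genes, with 9 windows. No window of *Dhx58*, *Zbp1* or *Tmem173* was searched. Printed below are the 4 windows with a match to a GAAA repeat and that of *Tlr3*, which responded to IFNγ in NTC cells. The *Tlr3* window holds no match to these letters. Its highest position is 45410630, inside the gene annotated up to 45411080 on the minus strand. Bases around that farther end were thus not searched. Capitals mark every match, and the transcript starts 50 bases before the end of each sequence, which reads 5′ to 3′ along the gene.
Ddx58, chr4:40239776-40240075, minus strand: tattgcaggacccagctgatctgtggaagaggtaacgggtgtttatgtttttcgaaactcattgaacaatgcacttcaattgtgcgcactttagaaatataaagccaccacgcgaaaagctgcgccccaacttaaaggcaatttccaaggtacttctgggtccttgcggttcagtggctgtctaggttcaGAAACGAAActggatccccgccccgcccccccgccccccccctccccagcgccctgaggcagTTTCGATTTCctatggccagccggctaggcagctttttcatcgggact
Ifih1, chr2:62646206-62646505, minus strand: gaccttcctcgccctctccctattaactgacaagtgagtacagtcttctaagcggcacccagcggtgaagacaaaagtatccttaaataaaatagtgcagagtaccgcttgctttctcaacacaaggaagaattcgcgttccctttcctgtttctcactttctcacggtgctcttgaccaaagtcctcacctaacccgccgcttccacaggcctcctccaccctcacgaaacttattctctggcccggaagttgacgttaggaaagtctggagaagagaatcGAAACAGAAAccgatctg
Eif2ak2, chr17:78882523-78882822, minus strand: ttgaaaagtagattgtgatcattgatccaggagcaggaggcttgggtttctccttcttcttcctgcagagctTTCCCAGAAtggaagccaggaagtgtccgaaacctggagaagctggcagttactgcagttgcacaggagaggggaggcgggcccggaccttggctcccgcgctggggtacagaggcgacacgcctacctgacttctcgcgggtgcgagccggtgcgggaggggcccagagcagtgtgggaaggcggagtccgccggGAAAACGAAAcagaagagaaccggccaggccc
Adar, the third annotated start, chr3:89730468-89730767, plus strand: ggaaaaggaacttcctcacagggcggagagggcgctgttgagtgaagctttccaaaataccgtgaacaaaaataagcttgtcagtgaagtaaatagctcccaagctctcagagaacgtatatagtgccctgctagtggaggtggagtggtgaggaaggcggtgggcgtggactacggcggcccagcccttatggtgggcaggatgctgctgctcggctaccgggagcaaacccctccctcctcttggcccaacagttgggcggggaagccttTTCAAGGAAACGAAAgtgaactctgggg
Tlr3, chr8:45410331-45410630, minus strand: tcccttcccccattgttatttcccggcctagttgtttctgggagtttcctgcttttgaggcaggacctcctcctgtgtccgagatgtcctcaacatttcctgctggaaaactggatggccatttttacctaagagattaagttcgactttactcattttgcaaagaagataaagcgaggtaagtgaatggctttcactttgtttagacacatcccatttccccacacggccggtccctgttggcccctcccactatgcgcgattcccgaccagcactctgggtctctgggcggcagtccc

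*Ddx58* held the repeat with a gap of 1 from 60 bases before its start and the repeat with a gap of 2, on the other strand, from base 3 of the transcript. *Ifih1* held the repeat with a gap of 2 from base 33 and *Eif2ak2* from base 19, with TTCNNNGAA from 178 bases before the *Eif2ak2* start. In the third *Adar* window, TTCNNNGAA began at base 23 and the repeat with a gap of 1 at base 29, so that they overlap. No match was found in the windows of *Mavs*, *Mb21d1* and *Tlr3* or in the first and second windows of *Adar*. Of all 32851 windows in the table, 3.44% held the repeat with a gap of 2, 8.3% TTCNNNGAA and 3.17% the repeat with a gap of 1. A match describes letters and not a bound site.

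**Figure D2:**
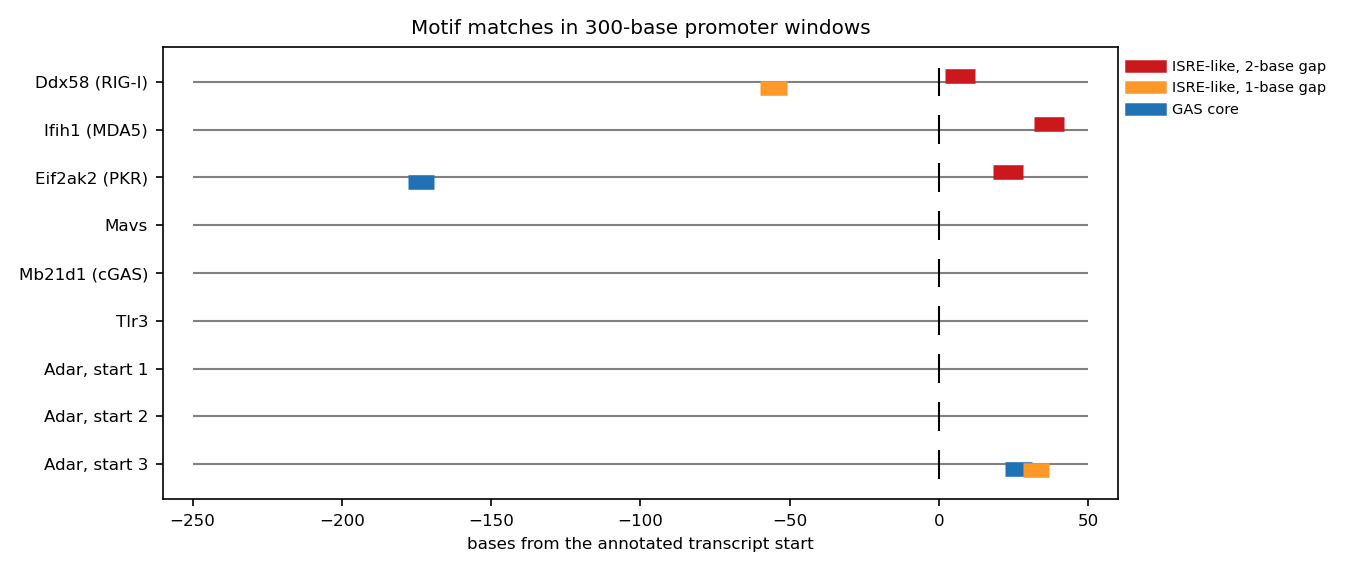
Motif matches (coloured blocks) in the 9 windows of 300 bases (grey lines) by distance in bases from the annotated transcript start (black ticks, 0). Matches to the ISRE-like letters lie in the windows of *Ddx58*, *Ifih1*, *Eif2ak2* and the third start of *Adar*, and 5 windows hold none.

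*Eif2ak2*, which encodes the translation-blocking kinase PKR (ENSMUSG00000024079, chromosome 17, 78852564 to 78882573, minus strand), rose by less from a higher level. In NTC cells it stood at 17.1, 19.6 and 18.2 TPM without and at 24.7, 27.2 and 24.8 TPM with IFNγ. In DKO cells it stood at 23.3, 19.9 and 21.2 TPM untreated and 22.6, 26.1 and 29.3 TPM treated. The NTC groups did not overlap, while the DKO groups did. IFNγ raised it by 0.46 in NTC (SE 0.0874, adjusted p = 0.00894, limma), 1.4-fold in mean TPM. In DKO the difference was 0.26 (95% interval 0.07 to 0.45, adjusted p = 0.321). Basal RNA differed between genotypes by 0.22 (adjusted p = 0.0647), with every untreated DKO library above every untreated NTC library, and passed the threshold in 5 of 19 alternatives. Annotated genes on the opposite strand share 174 exonic bases (*Gm26637*) and 47 exonic bases (*n-R5s29*) with it.

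*Zbp1*, the sensor of left-handed nucleic acids (ENSMUSG00000027514, chromosome 2, 173206612 to 173218923, minus strand), had the largest log2 differences of the 10 genes with IFNγ. Untreated NTC libraries held 0.338, 0 and 0.38 TPM and treated ones 2.47, 2.72 and 3.7 TPM. Untreated DKO libraries held 0, 0.511 and 0 TPM and treated ones 2.27, 1.7 and 1.81 TPM. Each treated library was thus above all untreated ones, and all treated NTC were above all treated DKO libraries. The response was 1.68 in NTC (SE 0.189, adjusted p = 0.000131, limma) and 1.35 in DKO (adjusted p = 0.00169). With a pseudocount of 0.1 TPM in place of 1, the values were 3.45 (adjusted p = 0.0123) and 3.46 (adjusted p = 0.0337), so the size depends on how values near 0 are treated. With IFNγ the gene was 0.43 lower on the log2 scale in DKO than in NTC, which was not called (95% interval −0.84 to −0.02, adjusted p = 0.083). The call appeared when only these 6 libraries were fitted (adjusted p = 0.0425) or without untreated DKO replicate 2 (adjusted p = 0.0467).

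*Adar*, which encodes the RNA editing enzyme ADAR1 (ENSMUSG00000027951, chromosome 3, 89715022 to 89753446, plus strand), had small and tight differences. Its levels were 24.6, 24.6 and 24.4 TPM in untreated NTC, 27.2, 28.3 and 25.3 TPM in treated NTC, 21.6, 21.8 and 22.6 TPM in untreated DKO and 24.9, 24.9 and 24.7 TPM in treated DKO libraries. Treated libraries were above untreated ones of the same genotype, and DKO below NTC libraries of the same treatment, without overlap. Neither response was called, at 0.13 in NTC (adjusted p = 0.0974, limma) and 0.17 in DKO (adjusted p = 0.217). Basal RNA was lower in DKO by a log2 difference of −0.15 (SE 0.0499, adjusted p = 0.0296). That call was lost without untreated NTC replicate 1, 2 or 3 or untreated DKO replicate 1 or 2 (adjusted p from 0.0656 to 0.0882) and with libraries scaled to the same total (−0.10, adjusted p = 0.125). Between treated genotypes it was −0.11 (adjusted p = 0.0899), and the threshold was passed by leaving out replicate 3 of treated NTC (−0.15, adjusted p = 0.0332) and by removing a trend with GC content and length (−0.21, adjusted p = 0.00577). *Chrnb2*, on the opposite strand, shares 1365 exonic bases with *Adar* and reached at most 2.6 TPM.

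The adaptor gene *Mavs* (ENSMUSG00000037523, chromosome 2, 131234063 to 131248025, plus strand), on which RIG-I and MDA5 converge, did not pass the test for IFNγ. NTC libraries held 20.9, 18.6 and 20.7 TPM untreated and 19, 17.1 and 19.4 TPM treated, and DKO libraries 17.7, 17.6 and 17.6 TPM untreated and 16.3, 17.9 and 17.1 TPM treated. Treated and untreated libraries overlapped in both genotypes, with log2 differences of −0.11 (95% interval −0.25 to 0.03) and −0.04 (95% interval −0.18 to 0.10). Basal RNA was lower in DKO by −0.17 (SE 0.0637, adjusted p = 0.0464, limma), without overlap. This call was lost in 12 of 19 alternatives (adjusted p up to 0.153). They were no filter, a replicate block (adjusted p = 0.0595), both rescalings and leaving out untreated NTC replicate 1 or 3, any untreated DKO library, treated NTC replicate 1 or treated DKO replicate 1 or 3.

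*Tmem173*, which encodes STING, the adaptor of the DNA branch (ENSMUSG00000024349, chromosome 18, 35733679 to 35740554, minus strand), was higher in DKO cells, untreated and treated. NTC libraries held 21.3, 21.6 and 21.7 TPM untreated and 22.2, 24.5 and 23.5 TPM treated. DKO libraries held 31.6, 28 and 29.4 TPM untreated and 32.4, 32.4 and 31.8 TPM treated. All 6 DKO libraries were above all 6 NTC libraries. The gene was higher in DKO by 0.44 without IFNγ (SE 0.054, adjusted p = 3.38e-05, limma) and by 0.45 with it (adjusted p = 2.76e-05), 1.38-fold in mean TPM in both cases. The responses to IFNγ were 0.11 in NTC (adjusted p = 0.166) and 0.12 in DKO (adjusted p = 0.514), both with intervals from 0.00 to 0.23 and both uncalled, although treated and untreated libraries did not overlap.

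*Mb21d1*, which encodes the DNA sensor cGAS upstream of STING (ENSMUSG00000032344, chromosome 9, 78430526 to 78443237, minus strand, named *Cgas* in newer annotation), passed no test. It held 3.01, 3.78 and 4.27 TPM in untreated NTC, 4.51, 4.13 and 3.64 TPM in treated NTC, 3.74, 3.91 and 3.75 TPM in untreated DKO and 4.05, 3.34 and 3.83 TPM in treated DKO libraries. All 4 conditions overlapped. The basal difference between genotypes was 0.04 with a 95% interval from −0.19 to 0.28, and the response was 0.13 in NTC (95% interval −0.11 to 0.36) and −0.02 in DKO (95% interval −0.26 to 0.21). A pseudogene on the opposite strand, *Gm8093*, shares 201 exonic bases with it.

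*Tlr3*, the endosomal receptor for double-stranded RNA (ENSMUSG00000031639, chromosome 8, 45395665 to 45411080, minus strand), was higher in DKO cells in both conditions and rose with IFNγ in NTC cells. NTC libraries held 5.39, 4.85 and 4.92 TPM untreated and 7.44, 7.42 and 6.65 TPM treated. DKO libraries held 7.18, 8.01 and 7.67 TPM untreated and 9.25, 8.64 and 10.9 TPM treated. Untreated DKO libraries overlapped treated NTC libraries, while every other pair of conditions was apart. Basal RNA was higher in DKO by 0.51 (SE 0.087, adjusted p = 0.000512, limma), 1.51-fold in mean TPM, and by 0.37 with IFNγ (adjusted p = 0.00383), 1.34-fold. The response was 0.43 in NTC (adjusted p = 0.0121), 1.42-fold, and 0.29 in DKO, which was not called (95% interval 0.11 to 0.48, adjusted p = 0.224). An antisense gene, *Gm45542*, shares 381 exonic bases with it and is not in the table.

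Of the 10 genes, IFNγ raised 5 in NTC cells and lowered none (*Ddx58*, *Ifih1*, *Zbp1*, *Eif2ak2* and *Tlr3*), where 12.1% of tested genes were called, 7.31% as higher and 4.78% as lower. In DKO cells it raised 3 (*Ddx58*, *Ifih1* and *Zbp1*), where 0.78% of tested genes were called, 0.677% as higher and 0.103% as lower. These calls held in all 19 alternatives in either genotype, some of them narrowly. In NTC the largest adjusted p (limma) was 0.04996 for *Tlr3*, 0.0456 for *Eif2ak2*, 0.0123 for *Zbp1*, 0.00072 for *Ifih1* and 0.00064 for *Ddx58*. In DKO it was 0.0337 for *Zbp1*, 0.0062 for *Ifih1* and 0.00068 for *Ddx58*. *Zbp1* passed the filter only through treated libraries, so its calls, its ranks and its part in the counts and medians were in part fixed. Without it, the calls were *Ddx58*, *Ifih1*, *Eif2ak2* and *Tlr3* in NTC and *Ddx58* and *Ifih1* in DKO cells. An unadjusted p under 0.05 (limma) was reached by 6 of the 10 genes in NTC and 8 in DKO, beside 3707 and 1119 of 11663 tested genes. Treated libraries were above untreated ones without overlap for 8 genes in NTC and 6 in DKO, against 21.8% and 9.46% of tested genes. The median log2 difference of the 10 genes was 0.39 in NTC and 0.28 in DKO, beside 0.02 and 0.01 over all tested genes. Ranked from the highest log2 difference among 11663 genes, *Zbp1* was at place 21, *Ifih1* at 37 and *Ddx58* at 38 in NTC and at 25, 43 and 42 in DKO. The calls over all genes in NTC, 853 higher and 558 lower, shifted to 525 and 639 with libraries scaled to the same total and to 572 and 672 with median-ratio scaling, and the same 5 sensors stayed called.

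Without IFNγ, 4 of the 10 genes were higher in DKO than in NTC cells (*Tlr3*, *Ddx58*, *Tmem173* and *Ifih1*) and 2 were lower (*Mavs* and *Adar*), where 36.4% of tested genes were called, 17.0% as higher and 19.4% as lower. With IFNγ, 2 were higher (*Tmem173* and *Tlr3*) and none lower, where 43.3% of tested genes were called, 19.5% as higher and 23.9% as lower. The 2 of 10 called as higher there are near that background share, as are the 2 of 10 called as lower without IFNγ. Those lower calls were lost in 12 (*Mavs*) and 6 (*Adar*) of 19 alternatives. The higher calls of both comparisons held in all 19 alternatives. Groups did not overlap for 5 genes higher and 2 lower without IFNγ (24.8% and 26.8% of tested genes) and for 3 higher and 2 lower with it (22.7% and 27.2%). The median was 0.24 without and 0.08 with IFNγ, beside −0.01 over all genes in both. Calls over all genes, 1982 higher and 2265 lower untreated and 2271 and 2782 treated, became 2655 and 1722 and 3283 and 1746 with libraries scaled to the same total. *Ddx58*, *Ifih1* and *Tlr3* were called both as higher with IFNγ in NTC and as higher in untreated DKO cells, 2 comparisons that share the untreated NTC libraries.

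**Figure D3:**
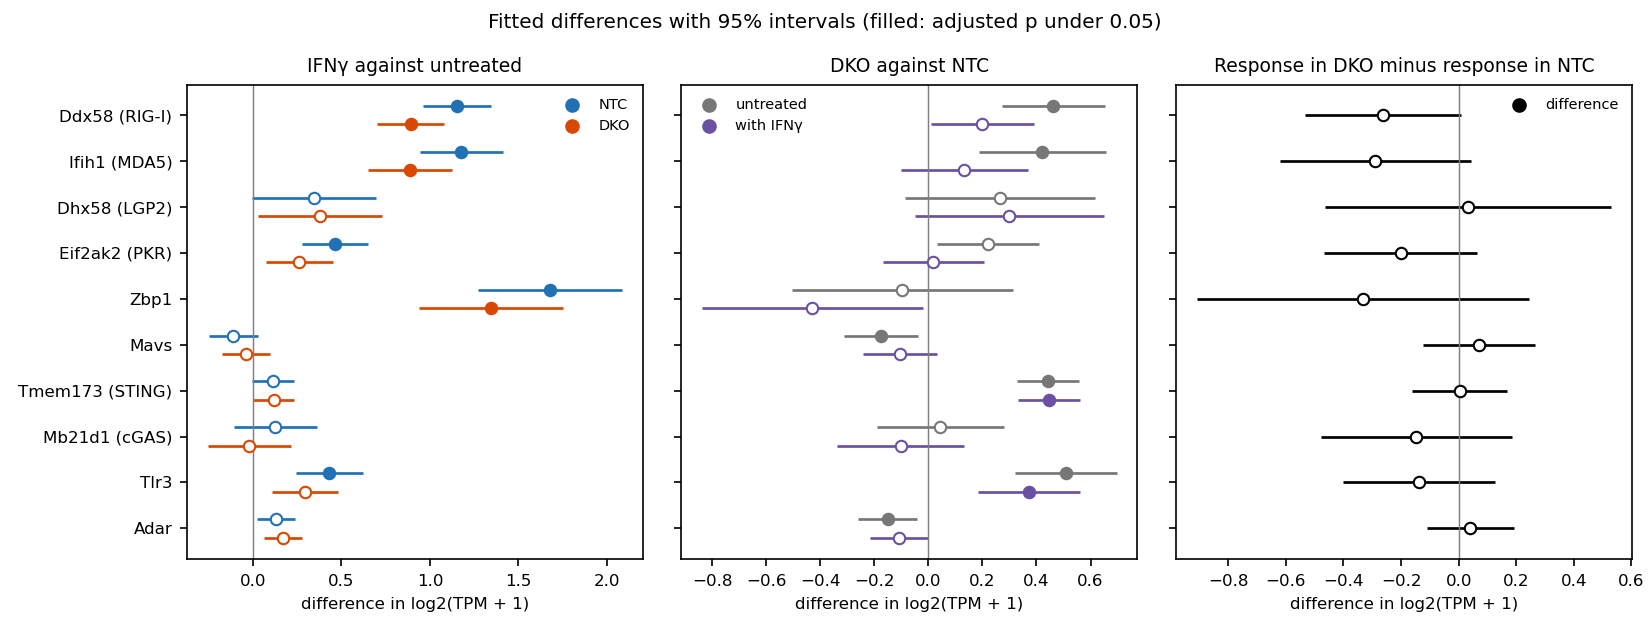
Fitted differences in log2(TPM + 1) (horizontal axes) with 95% intervals for IFNγ against untreated in each genotype (left), DKO against NTC in each condition (middle) and the difference of the responses (right), with filled points for an adjusted p under 0.05. All 10 intervals on the right hold 0.

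**Figure D4:**
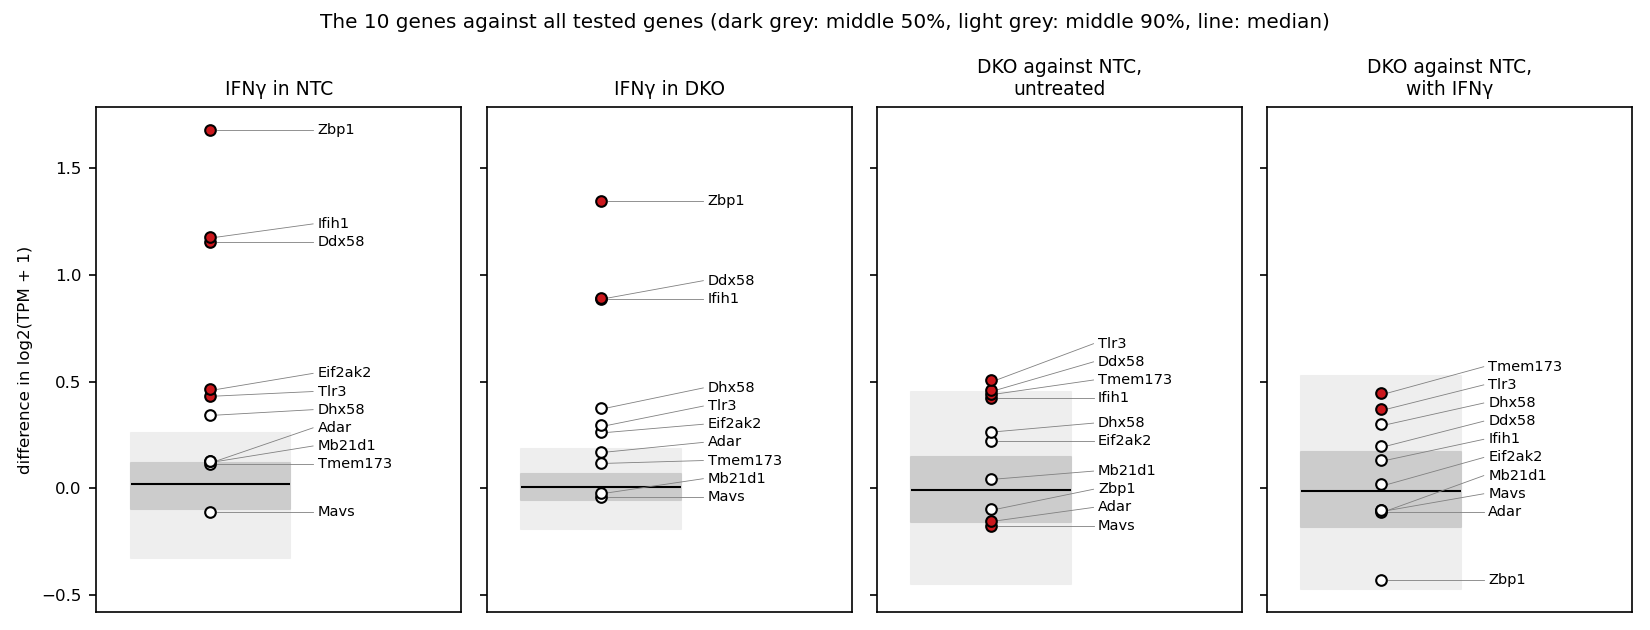
The same log2 differences (vertical axis) as points, red where called, over the middle 50% (dark grey), the middle 90% (light grey) and the median (line) of all 11663 tested genes. With IFNγ, 6 sensors lie above the middle 90% in NTC and in DKO. They include *Zbp1*, whose response was in part fixed by the filter. Between genotypes, all but *Tlr3* and *Ddx58* in untreated cells lie within the middle 90%.

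Whether the response differs by genotype was tested by the interaction term. None of the 10 genes was called by limma, none had an unadjusted p under 0.05, and 0.0343% of tested genes were called, with 11.5% under 0.05 unadjusted. The response in DKO minus that in NTC was −0.26 for *Ddx58* (95% interval −0.53 to 0.01, adjusted p = 0.437), −0.29 for *Ifih1* (95% interval −0.62 to 0.04, adjusted p = 0.475) and −0.33 for *Zbp1* (95% interval −0.91 to 0.24). The interval was narrowest for *Adar* (0.04, −0.11 to 0.19) and *Tmem173* (0.00, −0.16 to 0.17). That *Eif2ak2* and *Tlr3* were called in NTC and not in DKO cells is therefore not a shown difference, as their differences were −0.20 (95% interval −0.47 to 0.06) and −0.14 (95% interval −0.40 to 0.13). Across the 18 alternatives that could be fitted, no sensor passed the threshold. The sign was negative for 6 of the 10 genes, and 51.6% of all tested genes had a negative sign.

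By Pearson correlation over the 12 libraries on log2(TPM + 1), a description in which points share conditions, *Ddx58* was most like *Irgm1* (r = 0.989), *Ifitm3* (0.985) and *Cadm1* (0.984). *Ifih1* was most like *Cadm1* (0.984), *Ddx58* (0.974) and *Ifitm3* (0.974), and *Zbp1* most like *Tap2* (0.98) and *Itm2b* (0.972). *Tmem173* was nearest to *Fndc3b* (0.988), *Tnik* (0.983) and *Polr1a* (0.982), and *Tlr3* to *Psme4* (0.975), *Dnajb11* (0.97) and *S100a10* (0.97). *Adar* was nearest to *Ubl3* (0.968), *Strn* (0.947) and *H2-K1* (0.939). The nearest genes were *F3* (0.937), *Znhit3* (0.931) and *Snap29* (0.916) for *Dhx58*, *Tulp4* (0.924), *Rlim* (0.919) and *Bod1l* (0.914) for *Eif2ak2*, and *Dynlt1c* (0.936), *Tmem8b* (0.929) and *F11r* (0.925) for *Mavs*. *Mb21d1* had the weakest match, with *Igsf23* at 0.819, *Gm10053* at 0.817 and *Zfp59* at 0.798. Among the sensors, *Ddx58* and *Ifih1* ran most closely together, while *Mavs* ran against *Tmem173* (r = −0.785) and *Tlr3* (r = −0.781).

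Around the sensors, 84 other genes of their pathways were followed in 9 lists, and 58 were tested. IFNγ raised 9 and lowered 2 in NTC cells and raised 2 in DKO cells, where 12.1% and 0.78% of all tested genes were called. Between genotypes, 14 were higher and 17 lower in untreated DKO and 14 higher and 19 lower in treated DKO cells, 36.4% and 43.3% being called over all genes. Both lower counts include *Oas1a* and *Oas1g*, which passed the filter only through NTC libraries, so these counts were in part fixed. None of the 58 was called for the interaction by limma, with 2 at an unadjusted p under 0.05. Of 65 calls named in the following by the size of their difference, 34 held in all 19 alternatives. The others are given with the alternatives in which they were lost or their number, and 108 of 147 losses came with 1 library left out. The median log2 difference of the 58 was 0.06 in NTC and 0.03 in DKO with IFNγ, and 0.02 untreated and −0.0014 treated between genotypes.

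Among 11 tested cofactors and regulators of RNA sensors, 4 were raised by IFNγ in NTC and 1 in DKO, against 7.31% and 0.677% of all tested genes. *Trim25*, the ubiquitin ligase that acts on RIG-I, went from 3.02, 3.03 and 2.75 TPM to 4.81, 5.08 and 4.22 TPM in NTC libraries, a difference of 0.53 (adjusted p = 0.00326, limma). In DKO cells it rose by 0.51 (adjusted p = 0.0095), a call lost without untreated DKO replicate 2 or treated DKO replicate 3 (adjusted p up to 0.0696). *Rnf135* (0.33) and *Dhx9* (0.28) rose in NTC but lost the call in 8 and 5 of 19 alternatives. *Rnf135* (0.29) and *Dhx9* (0.25) were also the 2 higher in untreated DKO cells, calls lost in 4 and 1 of 19 alternatives, all with 1 library left out (adjusted p up to 0.0915). Lower there were 4, and 17.0% of all tested genes were higher and 19.4% lower. *Zc3hav1*, which encodes the antiviral protein ZAP, was lower in DKO by −0.32 without (adjusted p = 0.000464) and −0.31 with IFNγ (adjusted p = 0.000602), in all alternatives. *Nlrx1* (−0.39) and *Dhx36* (−0.16) were lower untreated, calls lost in 1 and 10 of 19 alternatives, and *Dhx36* (−0.31) and *Ddx3x* (−0.21) lower with IFNγ in all of them.

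Of the OAS enzymes, which make the 2-5A messenger of antiviral defence, 4 of 8 list members were tested. *Oas1a* stood at 2.24, 1.72 and 2.13 TPM in untreated NTC, 4.12, 5.63 and 3.37 TPM in treated NTC, 0.404, 0.439 and 0.732 TPM in untreated DKO and 1.29, 0.668 and 0.858 TPM in treated DKO libraries. Thus every DKO library, treated or not, was below every untreated NTC library. Its difference between genotypes was −0.99 without (SE 0.165, adjusted p = 0.000414, limma) and −1.46 with IFNγ (adjusted p = 1.54e-05). It reached 1 TPM in 6 NTC libraries and 1 DKO library, and *Oas1g* in 4 NTC libraries and no DKO library. Both genes thus passed the filter only through NTC libraries, where they are high, so their genotype differences were in part fixed by the filter. IFNγ raised it in NTC by 0.81 (adjusted p = 0.0126), a call lost without untreated or treated NTC replicate 2 (adjusted p up to 0.053). *Oas1g* was lower in DKO by −0.54 untreated and −0.67 treated, the former lost in 3 of 19 alternatives. The family has near-identical copies, among which reads may have been split. *Oasl2* (0.33 with IFNγ in NTC) lost its call in 16 alternatives. This gene stood at 0.911 to 1 TPM in untreated NTC, 0.994 to 1.01 TPM in untreated DKO and 1.37 to 1.53 TPM in treated libraries. It thus lay at the limit of the filter without IFNγ, and the filter may have fixed its response in part.

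In the DNA branch, 9 of 16 partners and nucleases were tested. *Lrrfip1*, a nucleic acid binding cofactor, was higher in DKO by 0.39 untreated (adjusted p = 2.41e-05, limma) and 0.29 treated, and *Dnase2a*, which encodes the lysosomal DNase II, was lower by −0.44 (adjusted p = 6.50e-05) and −0.22. *Ddx41* was lower by −0.24 and −0.19 and *Rnaseh2b*, with IFNγ, by −0.25. The calls of *Lrrfip1* and the untreated call of *Dnase2a* held in all alternatives, those of *Ddx41* were lost in 1 and 6, that of *Rnaseh2b* in 4, and that of treated *Dnase2a* with libraries scaled to the same total (−0.14, adjusted p = 0.0881). *Samhd1*, which degrades dNTPs, rose with IFNγ in NTC by 0.30, a call lost in 6 of 19 alternatives.

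Downstream of MAVS, TRIF and STING, all 17 genes were tested. *Ticam1*, which encodes TRIF, the adaptor of TLR3, was higher in DKO cells, as *Tlr3* was. It stood at 10.6, 12.3 and 10.6 TPM in untreated NTC and 17, 15.4 and 16.4 TPM in untreated DKO libraries, a difference of 0.51 (adjusted p = 0.000179, limma), and of 0.58 with IFNγ (adjusted p = 5.43e-05). *Irf3*, which encodes the transcription factor of these pathways, was higher in DKO by 0.28 untreated and 0.42 treated, and was lowered by IFNγ in NTC by −0.32 (adjusted p = 0.0139), which was lost with a GC content and length trend removed (adjusted p = 0.0602). *Traf6* was lower in DKO by −0.55 and −0.50, and *Ikbke* was higher untreated by 0.28, all in every alternative. *Chuk* (−0.22 and −0.32) and *Tank* (−0.23 and −0.27) were lower in DKO, with untreated calls lost in 4 alternatives each and the treated call of *Tank* with a GC content and length trend removed. *Tbkbp1*, higher by 0.29 in treated DKO, fell to 0.05 in that setting (adjusted p = 0.662) and lost the call without treated NTC replicate 3 or treated DKO replicate 2. The calls of *Azi2* (0.21) and *Tradd* (−0.26) with IFNγ in NTC were lost in 10 and 11 alternatives.

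The partners of ZBP1 in cell death differed among themselves. *Mlkl*, which encodes the executor of necroptosis, rose with IFNγ from 41.7, 41.7 and 40.2 to 62.1, 70.6 and 72.4 TPM in NTC libraries (0.71, adjusted p = 1.36e-05, limma) and from 38.2, 40.9 and 43.3 to 55.8, 51.4 and 57 TPM in DKO libraries (0.42, adjusted p = 0.00389). With IFNγ it was lower in DKO by −0.31 (adjusted p = 0.00163). *Ripk3*, the kinase that phosphorylates MLKL, was at most 0.286 TPM in any library and listed at 0 in 8 of 12. *Casp8* (0.22) and *Ripk1* (0.22) were higher and *Fadd* (−0.25) lower in untreated DKO, and *Ripk1* (0.17) was higher in treated DKO cells, calls lost in 1, 3, 8 and 11 alternatives.

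Among the other eIF2α kinases and the response they drive, none of 8 genes was called by limma for IFNγ in either genotype. Over all tested genes, 12.1% were called in NTC and 0.78% in DKO, shares at which few of 8 would be called. The unadjusted p was under 0.05 for 2 of the 8 in NTC and 0 in DKO. In DKO cells *Eif2ak3*, which encodes PERK, was higher by 0.52 untreated (adjusted p = 5.13e-05, limma) and 0.49 treated, while *Atf4* (−0.90 and −0.87), *Ddit3* (−1.18 and −1.11) and *Ppp1r15a* (−1.65 and −1.42), which act after eIF2α phosphorylation, were lower in all alternatives. *Eif2ak1* was higher by 0.21 untreated, lost in 4. *Eif2ak4*, another of these kinases, was lower by −0.25 untreated (adjusted p = 0.0068, limma) and −0.29 treated (adjusted p = 0.00226). Its calls were not followed through the alternatives. Of the 8 genes, 2 were higher and 5 lower untreated, and 1 higher and 5 lower treated. Over all tested genes, 36.4% and 43.3% were called. *Myd88* (0.39) and *Unc93b1* (0.30), from the list of endosomal receptors and their partners, were higher in treated DKO cells, lost in 2 and 5. *Adarb1*, another ADAR gene, was higher by 0.26 untreated and 0.33 treated, opposite in sign to *Adar*, the former lost in 6.

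Few output genes of these sensors passed the filter. *Ifnb1* and *Ifna4* were listed at 0 in every library, and 2 of 7 listed output genes were tested. *Cxcl10*, a chemokine gene induced by interferons and sensors, stood at 5.77, 4.81 and 3.08 TPM in untreated NTC, 4.86, 6.85 and 7.88 TPM in treated NTC, 11.8, 15.3 and 11.1 TPM in untreated DKO and 19.4, 12.1 and 13.9 TPM in treated DKO libraries. Every DKO library was above every NTC library, by 1.32 untreated (SE 0.207, adjusted p = 0.000265, limma) and 1.09 treated (adjusted p = 0.000931), while neither response to IFNγ was called. *Ccl5* was higher in DKO by 0.50 untreated (adjusted p = 0.0323), lost with no filter and without untreated NTC or DKO replicate 1 (adjusted p up to 0.138), and by 0.64 treated (adjusted p = 0.00854).

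**Figure D5:**
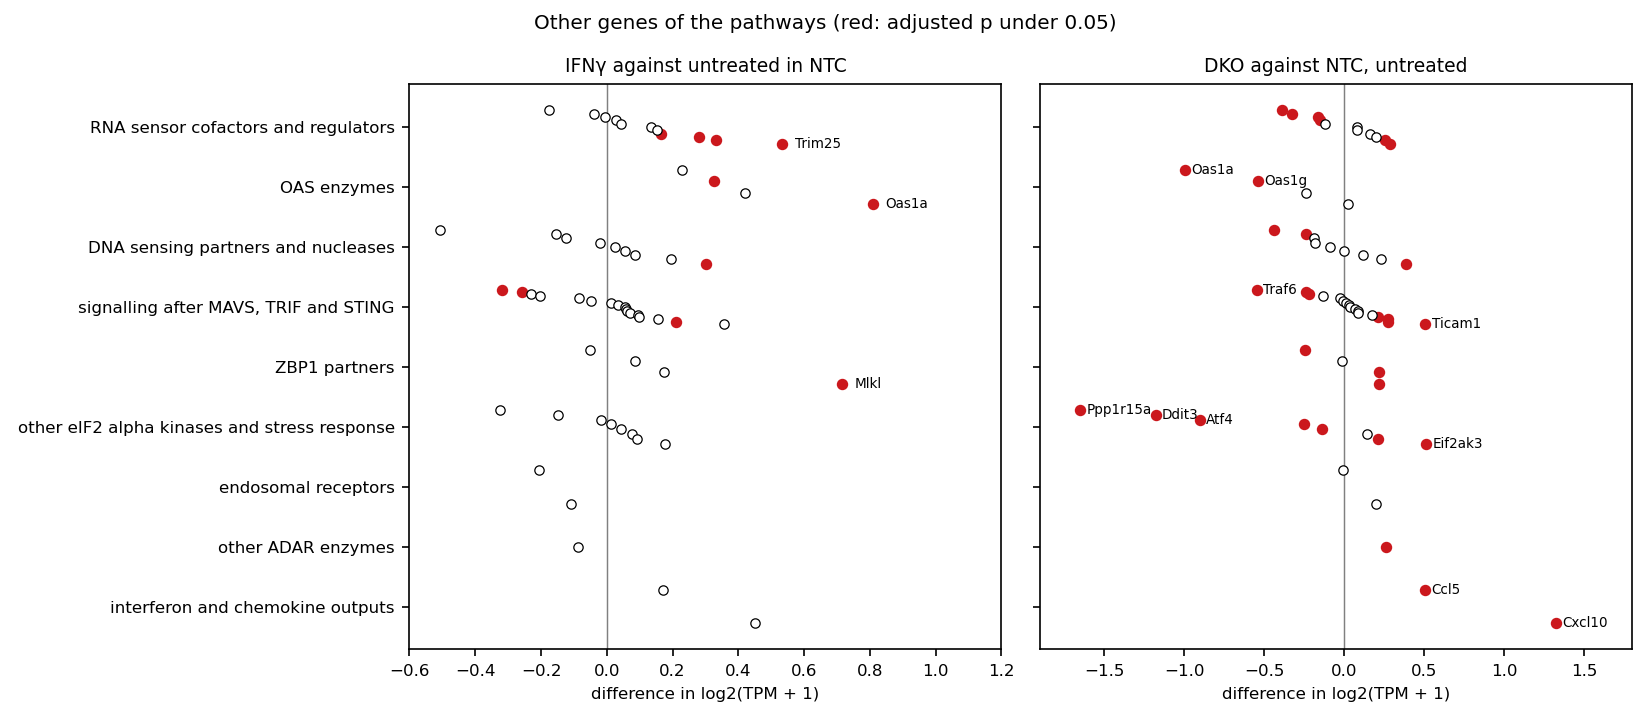
Log2 differences (horizontal axes) of the 58 tested pathway genes by list, for IFNγ in NTC cells (left) and DKO against NTC untreated (right), with red points for an adjusted p under 0.05. *Oas1a*, *Mlkl* and *Trim25* lead the response on the left, while on the right *Cxcl10* and *Ppp1r15a* lie at the ends, at 1.32 and −1.65.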

How the data were processed

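Poly(A) RNA of B16-F10 cells was sequenced by the authors as unstranded paired reads and quantified with RSEM 1.2.4, which called Bowtie, on a merged Ensembl, UCSC and MISO annotation, and unaligned reads were mapped to mm10 (GRCm38) with TopHat, per the study's methods and the processing notes. What the authors deposited is a table of TPM, despite a name that speaks of counts. Values are fractional, keep no depth, and a scaling between libraries is not given in the sources used here. Groups and replicate numbers were taken from the sample labels.

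A gene was kept if 3 or more of 12 libraries reached 1 TPM (11663 of 23022). limma 3.58.1 (R 4.3.3) was run on log2(TPM + 1) with a mean for each condition and a trended prior variance, and Benjamini-Hochberg adjustment covered all tested genes. The 5 comparisons were IFNγ in NTC, IFNγ in DKO, DKO against NTC without and with IFNγ, and the difference between responses. The fit was tested on simulated data. Alternatives were a pseudocount of 0.1, no filter, a replicate block, each library left out, 2 rescalings (a common total and median ratios), values with a trend in GC content and gene length taken out, and only the 6 libraries of a comparison.

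The members and lists were chosen with earlier results of these data known. All 10 members are named, with *Mbnl1* and *Mbnl2*, and in each of 9 pathway lists and each comparison up to 3 called genes per direction with the largest log2 difference. *Ripk3*, *Eif2ak4*, *Ifnb1*, *Ifna4* and the marker *Cd68* were named after their values were seen. Markers of cell types were summed per library. The 3 genes most like each member were found by Pearson correlation. Some genes that these rules would name are not reported here. Coordinates and overlaps are from GENCODE M21 and promoter windows from RefSeq, both GRCm38. Tables were made with pandas 2.3.3, scipy 1.17.1 and numpy 2.4.6 in Python 3.11.15, and figures with matplotlib 3.10.9.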

Additional observations from a re-analysis of the deposited data

How the results depend on the processing

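The 19 alternatives, 18 for the interaction since 6 libraries cannot give it, changed no direction of a called difference of the 10 sensors. Of 940 values, 909 kept their side of the threshold, 18 lost the call and 13 gained it. All 18 losses were those of *Mavs* and *Adar* between untreated genotypes. With each library left out in turn, 5 sensors were called for IFNγ in NTC and 3 in DKO, 4 to 6 between untreated genotypes, 2 to 3 between treated genotypes and 0 for the interaction. With a GC content and length trend removed, 5 sensors were called between treated genotypes, up from 2 (*Ddx58*, *Mavs* and *Adar* joined). The cause was not tested. The number of all genes called for IFNγ in NTC, 1411, fell to 526 in that setting, to 897 without a filter, and ranged from 317 to 2023 with a library left out. The 4 interaction calls over all genes ranged from 0 to 10. The pathway genes named by the size of their difference were recomputed in the same alternatives, a choice made after their values were seen. Of 10 calls for IFNγ in NTC 2 held in all, of 2 in DKO 1, of 27 between untreated genotypes 13 and of 26 between treated genotypes 18.

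With the replicate number as a block, 5 sensors were called for IFNγ in NTC, 3 in DKO, 5 and 2 between genotypes and 0 for the interaction, and *Mavs* between untreated genotypes was the call lost. Deviations of same-numbered libraries from their group means had correlations from −0.179 to 0.119, with 2 of 12 pairs over 0.1. Whether libraries of the same number were handled together cannot be told from these values, and the labels do not state it. TPM hold no depth, so what a value of 0 allows cannot be given.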
